A study of Rattus norvegicus with 12 samples.

Results

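The genes described here are a list of 45 interferon response and antigen presentation genes, given by symbol: receptors and regulators of interferon signalling, the transcription factors they act on, antiviral effectors, interferon-induced chemokines, and the class I and class II pathways of antigen presentation. A gene was taken as measured where the platform annotation gave its probe set exactly that 1 symbol, and 36 of the 45 were, among 13215 genes with such a probe set. Each of the 36 had 1 probe set. Irf7, Ifih1, Ddx58, Usp18, Eif2ak2, Gbp5 and Ifnar2 matched no probe set by symbol, Irf3 and Tapbp matched only probe sets that name a second gene as well, and these 9 genes were not analysed here. The livers came from 12 Sprague Dawley rats, housed individually and fed 1 of 3 diets for 7 days, with 4 rats and 4 arrays per diet that the labels call biological replicates. The first diet held 550 mg of NO-naproxen per kg, naproxen joined to a group that can release nitric oxide. The second held 400 mg of naproxen per kg, an inhibitor of both cyclooxygenases used against pain and inflammation, and the third was the control diet. The sources used here give neither age nor sex of the rats. The series compares each drug with the control diet and the drugs with each other.

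Interferons are cytokines that put cells into an antiviral state. Type I interferons bind a receptor with the subunit Ifnar1 and act through a complex that holds Stat2 and Irf9 and binds the interferon-stimulated response element, or ISRE, before genes such as Mx1, Oas1a, Ifit1 and Isg15. Interferon gamma binds Ifngr1 and Ifngr2, acts at gamma-activated sites (GAS), and induces Irf1, Ciita, the chemokines Cxcl9, Cxcl10 and Cxcl11, and the machinery that loads peptides onto class I and class II molecules. In liver, class I molecules are carried by hepatocytes and other cells, whereas class II molecules are carried mainly by Kupffer cells, dendritic cells and B cells.

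Levels are given as log2(intensity + 16), so that differences are log2 fold changes on that scale, which are smaller than the true ones for dim probe sets. A probe set was called dim when its mean over the arrays lay within the range of 964 olfactory and vomeronasal receptor probe sets, genes of the sensory epithelia, at or below 6.44. Of the 36 genes, 33 lay above that range, while Ifit1, Isg15 and Ifit3 were dim, so their differences cannot be told apart from differences in background. Of 10 hepatocyte markers 9 were measured, all 9 above the olfactory receptor range, as the liver label calls for. In bulk liver, fewer cells of a type and less RNA per cell cannot be told apart. Arrays also had unequal spread. The interquartile range of all probe sets was 2.07 to 2.62 log2 units on the NO-naproxen arrays, 2.20 to 2.53 on the naproxen arrays and 1.94 to 2.37 on the control arrays, with control replicates 3 and 4 the narrowest. Many of the values below move with this spread. Without these 2 arrays, 28 of the 36 log2 fold changes for NO-naproxen against control and 25 of the 36 for naproxen against control were over 1.5 times smaller or had turned direction, 11 and 13 of them turned. No gene reached an unadjusted p under 0.05 for NO-naproxen against control without these 2 arrays, and Ifit1 alone did for naproxen. With the interquartile range as a covariate 12 of the 36 values turned in each comparison, and Ifi35 and Ifit3 for NO-naproxen and Ifit1 for naproxen reached it.

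None of the 36 genes passed the adjusted threshold of limma (an adjusted p under 0.05 over 19418 probe sets) in any of the 3 comparisons, and neither did any other probe set: the share called was 0% each time. The smallest adjusted p of any probe set was 0.468 for NO-naproxen against control, 0.245 for naproxen against control and 1 for NO-naproxen against naproxen. At an unadjusted p under 0.05 limma gave 2011, 2458 and 373 probe sets in these comparisons. Leaving out control replicate 2 brought 4 probe sets past the adjusted threshold for NO-naproxen and 2 for naproxen against control, and leaving out control replicate 1 brought 3 for naproxen. The number of arrays limits the precision, with a median standard error of 0.21 and a median 95% interval of 0.44 to either side of a log2 fold change. Values below are therefore differences in level with their errors, not calls. After median centring of the arrays, 32 of the 36 genes were above control with NO-naproxen and 31 with naproxen, and after quantile normalization 26 and 28. Centring also moved the median over all probe sets, to 0.070 and 0.081 from 0.0004 and -0.034, and quantile normalization to 0.0095 and 0.024. Without the 2 arrays of narrowest spread 23 and 24 of the 36 genes were above control. Both drug groups were compared with the same 4 control rats, so their values are given side by side and are not independent.

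In NO-naproxen livers, 26 of the 36 genes had a mean above the control mean, 72.2%, where 50.1% of all probe sets and 61.4% of those above the olfactory receptor range did. The median log2 fold change of the 36 genes was 0.21, against 0.0004 over all probe sets and 0.095 over those above the olfactory receptor range. An unadjusted p under 0.05 was reached by 4 of 36 genes, Ifnar1, Ifi35 and Ifi44 above control and Ifit1 below it, where 10.4% of all probe sets did, 5.49% above and 4.86% below control. The criterion of the study, a difference of at least 1.5-fold with an unadjusted p under 0.05, was met by 1 gene, Ifi44, where 3.8% of all probe sets met it. Ifi35 alone had groups that did not overlap, where 3.35% of all probe sets did. These shares are near the background of the table. The number of genes meeting the criterion was 0 without any 1 of NO-naproxen replicates 1 and 2 and control replicates 3 and 4, it was 2 without control replicate 1, 3 without NO-naproxen replicate 3, 4 without NO-naproxen replicate 4 and 6 without control replicate 2. The median log2 fold change was 0.14 without NO-naproxen replicate 2, 0.11 without control replicate 4 and 0.053 without both control arrays of narrowest spread.

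In naproxen livers, 25 of the 36 genes had a mean above the control mean, 69.4%, where 45.9% of all probe sets and 56.8% of those above the olfactory receptor range did. The median log2 fold change was 0.16, against -0.034 over all probe sets and 0.048 over those above the olfactory receptor range. Ifit1 and Ciita reached an unadjusted p under 0.05, both below control, which is 2 of 36 where 12.7% of all probe sets did, 3.16% above and 9.5% below control. Ifit1 alone met the study's criterion, where 5.85% of all probe sets met it, and Ifit1 alone had groups that did not overlap, where 4.5% of all probe sets did. These shares lie at or below the background of the table. The number of genes meeting the criterion was 2 without naproxen replicate 2, naproxen replicate 3, naproxen replicate 4 or control replicate 1, and 6 without control replicate 2. The median log2 fold change was 0.28 without naproxen replicate 3 and 0.046 without both control arrays of narrowest spread.

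**Figure D1:**
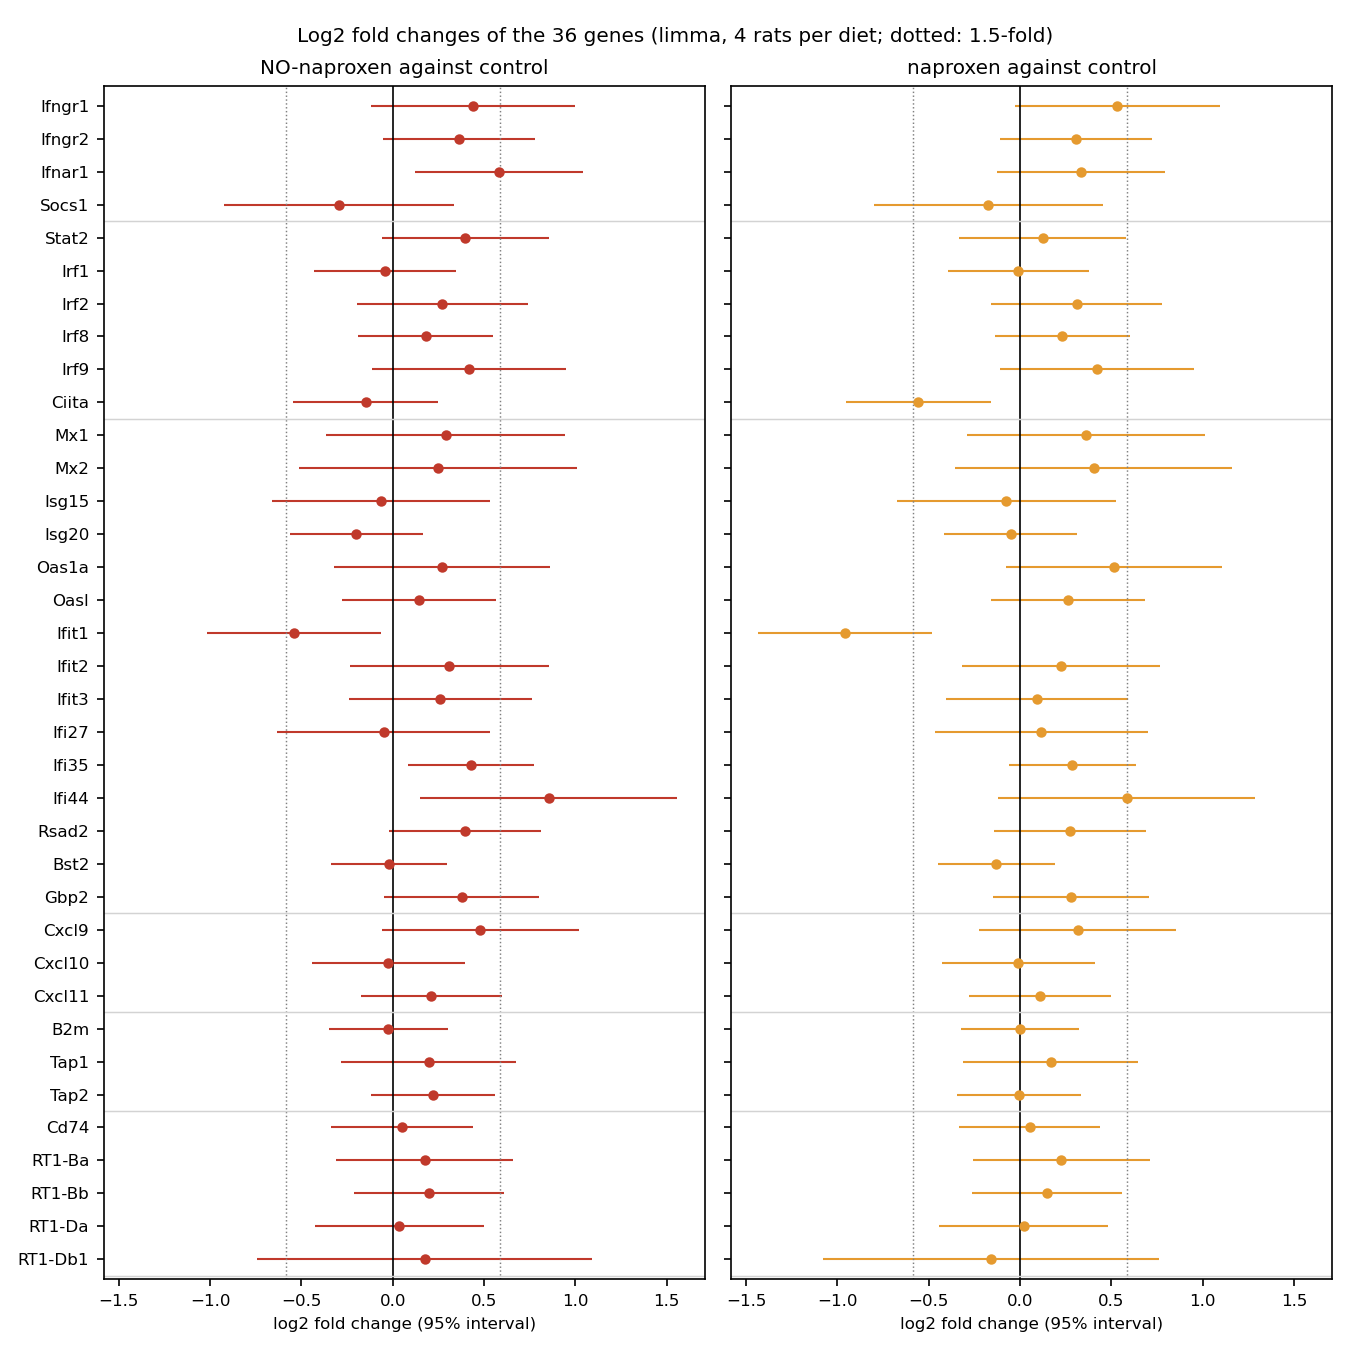
Log2 fold changes of the 36 genes for NO-naproxen against control (left) and naproxen against control (right), with 95% intervals from limma and 4 rats per diet, grouped by role from receptors at the top to class II genes at the bottom, and dotted lines at 1.5-fold. Most points lie right of 0, most intervals include 0, and Ifi44 at 0.85 on the left and Ifit1 at -0.96 on the right lie farthest out.

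The receptors of both interferon types were above the control mean with either drug. Over the 4 measured receptors and regulators the median log2 fold change was 0.40 with NO-naproxen and 0.32 with naproxen, with 3 of 4 above 0 each time and Socs1 the exception. Ifnar1, a subunit of the type I interferon receptor, measured 9.42, 9.52, 8.88 and 8.74 in NO-naproxen livers, 9.16, 8.75, 8.77 and 8.89 in naproxen livers and 8.75, 8.93, 8.41 and 8.15 in control livers. The 2 highest values were those of NO-naproxen replicates 1 and 2 and the 2 lowest those of control replicates 3 and 4, while the groups overlapped. Its log2 fold change was 0.58 ± 0.22 (SE, 95% interval 0.12 to 1.04), with an unadjusted p of 0.0168 and an adjusted p of 0.468 by limma for NO-naproxen against control. With naproxen the value was 0.33. Without control replicates 3 and 4 the NO-naproxen value was 0.30 and the naproxen value 0.053, and neither reached an unadjusted p under 0.05. With all arrays the NO-naproxen value was just under 1.5-fold. It met the study's criterion at 0.67 without NO-naproxen replicate 3, 0.71 without NO-naproxen replicate 4, 0.64 without control replicate 1 and 0.70 without control replicate 2.

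Both chains of the interferon gamma receptor averaged above control with either drug. Ifngr1, the ligand-binding chain, measured 8.54, 9.27, 8.56 and 8.19 in NO-naproxen livers, 8.88, 8.41, 8.77 and 8.86 in naproxen livers and 8.32, 8.88, 7.64 and 7.95 in control livers. Control replicate 3 was the lowest and NO-naproxen replicate 2 the highest, and the groups overlapped. For naproxen against control the log2 fold change of Ifngr1 was 0.53 ± 0.26 (SE, 95% interval -0.03 to 1.09), with an unadjusted p of 0.0606 and an adjusted p of 0.402 by limma, and for NO-naproxen against control it was 0.44. Without naproxen replicate 2 or without control replicate 2 Ifngr1 met the study's criterion for naproxen against control, at 0.64 and 0.76, and without both narrow control arrays it was 0.13, and 0.039 for NO-naproxen. For NO-naproxen it met the criterion without NO-naproxen replicate 4 or without control replicate 2. Ifngr2, the signal-transducing chain, averaged 9.05 ± 0.20 with NO-naproxen, 8.99 ± 0.30 with naproxen and 8.69 ± 0.29 in controls (SD, n = 4 each). Its log2 fold change was 0.36 ± 0.20 (SE, 95% interval -0.05 to 0.78), with an unadjusted p of 0.0831 and an adjusted p of 0.468 by limma for NO-naproxen against control, and 0.31 ± 0.20 (SE, 95% interval -0.11 to 0.72), with an unadjusted p of 0.139 and an adjusted p of 0.488 by limma for naproxen against control. Without both narrow control arrays these were 0.16 and 0.10. Socs1, the feedback inhibitor of the receptor-bound kinases, averaged 6.85 ± 0.64 with NO-naproxen, 6.97 ± 0.31 with naproxen and 7.14 ± 0.47 in controls (SD, n = 4 each), with log2 fold changes of -0.30 and -0.17 for NO-naproxen and naproxen against control, both within the spread between rats and turned to 0.097 and 0.19 with the interquartile range as a covariate.

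Among 6 measured transcription factors, 4 were above control with each drug, and the median log2 fold change was 0.23 with NO-naproxen and 0.18 with naproxen. Stat2 and Irf9 are part of the complex that binds the ISRE. Stat2 measured 10.41, 10.43, 9.82 and 10.24 in NO-naproxen livers, 10.32, 9.52, 10.00 and 9.96 in naproxen livers and 9.70, 10.32, 9.68 and 9.61 in control livers. Control replicate 2 lay apart from the other 3 controls, at the level of the NO-naproxen group, so the groups overlapped. Stat2 had a log2 fold change of 0.40 for NO-naproxen against control and 0.12 for naproxen against control, which were 0.22 and -0.059 without both narrow control arrays and 0.028 and -0.22 with the interquartile range as a covariate. Irf9, the DNA-binding partner of Stat2, averaged 9.31 ± 0.23 with NO-naproxen, 9.31 ± 0.38 with naproxen and 8.89 ± 0.52 in controls (SD, n = 4 each), and its log2 fold change for naproxen against control was 0.42 ± 0.25 (SE, 95% interval -0.11 to 0.95), with an unadjusted p of 0.11 and an adjusted p of 0.456 by limma. Without control replicate 2, whose Irf9 was also the highest of the 4 controls, the Irf9 value for naproxen was 0.66, and Irf9 met the study's criterion with either drug. Without both narrow control arrays Irf9 was at 0.040 with NO-naproxen and 0.046 with naproxen, and with the interquartile range as a covariate at -0.0075 and 0.034.

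Irf1, the factor induced by interferon gamma, averaged 8.75 ± 0.11 with NO-naproxen, 8.78 ± 0.21 with naproxen and 8.79 ± 0.32 in controls. Irf2, its antagonist at shared sites, averaged 8.91 ± 0.42 with NO-naproxen, 8.95 ± 0.16 with naproxen and 8.64 ± 0.35 in controls, and Irf8, a factor of macrophages and dendritic cells, averaged 8.20 ± 0.24 with NO-naproxen, 8.25 ± 0.16 with naproxen and 8.02 ± 0.21 in controls (SD, n = 4 each). The 3 groups of each of these genes overlapped, and none of the log2 fold changes, between -0.042 and 0.31, reached an unadjusted p under 0.05.

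Ciita, the co-activator without which class II genes are not transcribed, was the transcription factor with the smallest p in the test of any difference among the 3 diets. It measured 6.83, 7.09, 7.32 and 7.16 in NO-naproxen livers, 6.52, 6.68, 6.56 and 7.01 in naproxen livers and 7.32, 6.88, 7.19 and 7.61 in control livers. On 3 naproxen arrays Ciita was below every control and every NO-naproxen array, and naproxen replicate 4 lay within both groups. The log2 fold change for naproxen against control was -0.56 ± 0.19 (SE, 95% interval -0.96 to -0.16), with an unadjusted p of 0.00922 and an adjusted p of 0.381 by limma, a ratio of 0.68, and for NO-naproxen against control it was -0.15. In the test of any difference among the diets Ciita had an unadjusted p of 0.0248 and an adjusted p of 0.583 by limma. Ciita and Ifit1 were the 2 of 36 genes at an unadjusted p under 0.05 in that test, where 7.91% of all probe sets were. Without naproxen replicate 4 or without control replicate 2 Ciita met the study's criterion against control, at -0.66 and -0.68, and without both narrow control arrays it was -0.41, with an unadjusted p of 0.0919 by limma. Of the 5 class II genes, whose transcription needs Ciita, 4 had naproxen means above control. After quantile normalization Cd74 and RT1-Da among them were below it.

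**Figure D2:**
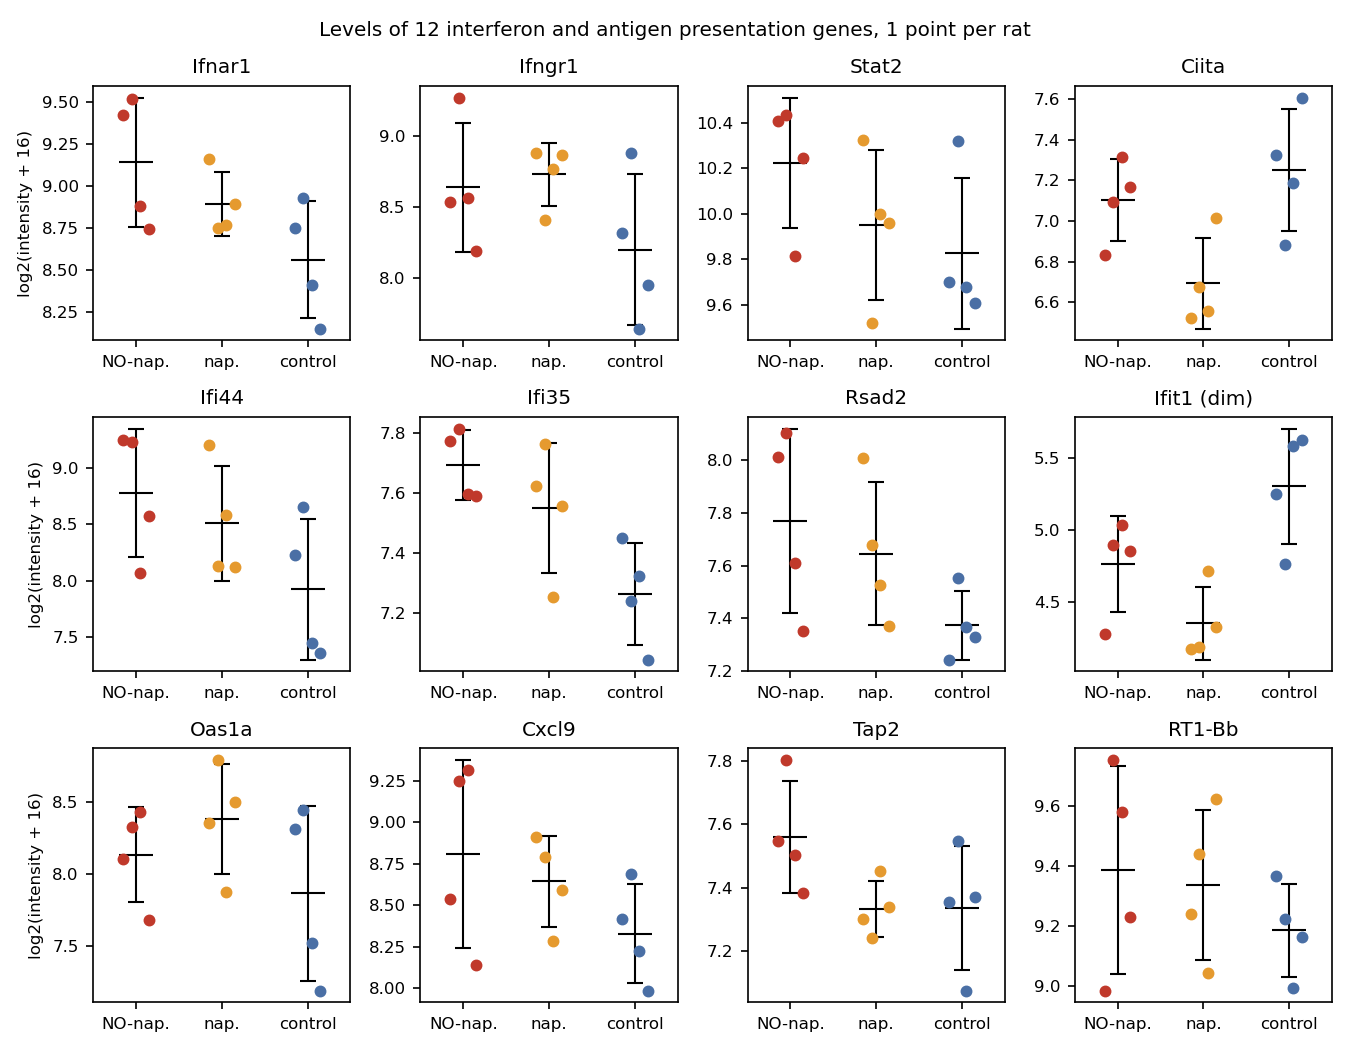
Levels of 12 genes as log2(intensity + 16), with 1 point per rat, NO-naproxen, naproxen and control from left to right, and bars for the mean and SD of 4 rats. The NO-naproxen and control points of Ifi35 and the naproxen and control points of Ifit1 do not overlap, while those of the other 10 genes overlap between each drug and control.

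Of the 15 measured sensors and antiviral effectors, 10 were above control with NO-naproxen and 11 with naproxen, and the median log2 fold change was 0.26 each time. The highest was Ifi44 and the lowest Ifit1 in both comparisons with control, and Bst2, Isg15 and Isg20 were below control with both drugs as well. Ifi44, an interferon-induced protein of the cytoplasm, measured 9.25, 9.23, 8.07 and 8.57 in NO-naproxen livers, 9.20, 8.13, 8.58 and 8.13 in naproxen livers and 8.23, 8.66, 7.45 and 7.36 in control livers. The highest values were those of NO-naproxen replicates 1 and 2 and naproxen replicate 1, the lowest those of control replicates 3 and 4, and the groups overlapped. Its log2 fold change was 0.85 ± 0.33 (SE, 95% interval 0.15 to 1.56), with an unadjusted p of 0.0204 and an adjusted p of 0.468 by limma for NO-naproxen against control, a ratio of 1.81. For naproxen against control it was 0.58 ± 0.33 (SE, 95% interval -0.12 to 1.29), with an unadjusted p of 0.0972 and an adjusted p of 0.444 by limma, a ratio of 1.5.

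Ifi44 followed the spread of the arrays. Over the 12 arrays its level and the interquartile range had a Pearson r of 0.948, and 0.53% of all probe sets had an r of that size or more in either direction. With the gene and the range both set against the mean of their diet, r was 0.937 and Spearman's rho 0.951 (exact permutation of the 12 arrays within diets, two-sided p = 0.000217 for each, and 0.00109 after Benjamini-Hochberg adjustment over 5 genes), and 1.01% of all probe sets reached that r. Without NO-naproxen replicate 2 and control replicate 2, the arrays of widest range in their diets, r was 0.944. The narrow control replicates 3 and 4 stayed in for this value. With the interquartile range as a covariate the Ifi44 log2 fold change was 0.15 for NO-naproxen and -0.066 for naproxen against control, and without both control arrays of narrowest spread it was 0.34 and 0.067. With NO-naproxen replicate 1, NO-naproxen replicate 2 or control replicate 3 left out Ifi44 was at 0.70, and with control replicate 4 left out at 0.67, and it then no longer met the study's criterion. For naproxen Ifi44 met it, at 0.83, when control replicate 2 was left out.

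The same relation was computed for the 4 other genes at an unadjusted p under 0.05 against control. Since these genes were chosen for their difference between diets, and the 2 narrowest arrays are controls, the values within diets are given. Ifnar1 had an r of 0.815 and a rho of 0.832 with the range (exact permutation p = 0.00629 and 0.00441, adjusted 0.0157 and 0.011). Its r was 0.688 without NO-naproxen replicate 2 and control replicate 2. Ciita ran the other way, with r = -0.741 and rho = -0.776 (exact permutation p = 0.0143 and 0.0109, adjusted 0.0239 and 0.0182), and r was -0.766 without them. Relations of this size are common on these arrays, since 14.6% of all probe sets had an r as large as that of Ifnar1 and 25.5% one as large as that of Ciita. Ifit1 had r = -0.513 and rho = -0.497 (exact permutation p = 0.143 and 0.145, adjusted 0.178 and 0.182). Its r was -0.494 without NO-naproxen replicate 2 and control replicate 2. Ifi35 had r = 0.21 and rho = 0.252 (exact permutation p = 0.517 and 0.46, adjusted 0.517 and 0.46), and r was 0.156 without them.

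**Figure D3:**
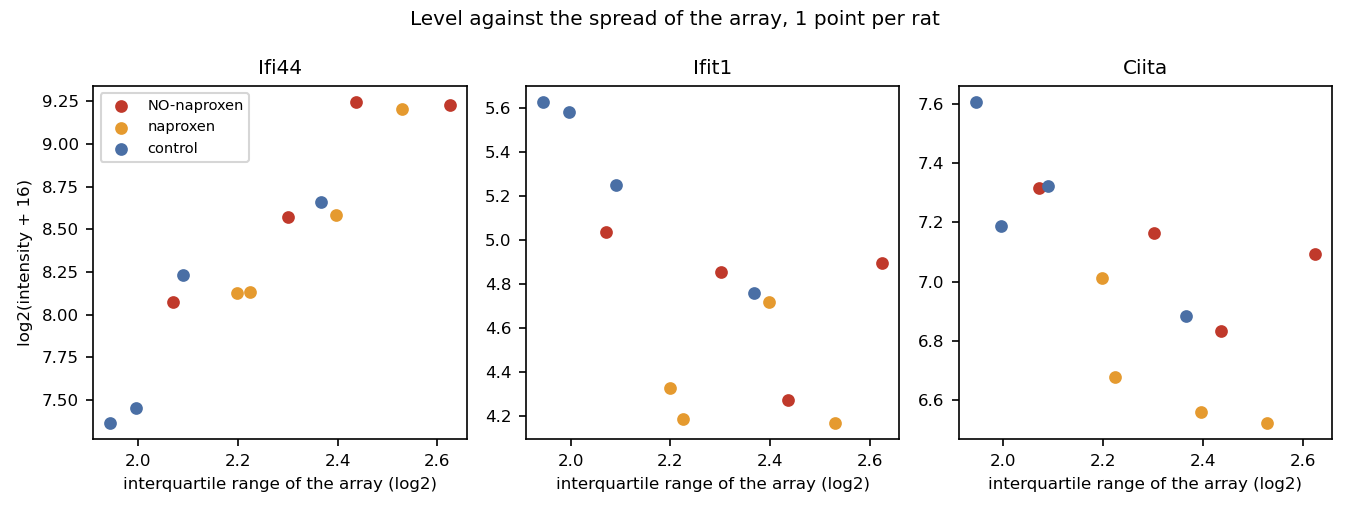
Level of Ifi44, Ifit1 and Ciita as log2(intensity + 16) against the interquartile range of the array in log2 units, with 1 point per rat coloured by diet. Ifi44 is higher on arrays of wider range (r = 0.937 within diets), Ciita is lower on them (r = -0.741), Ifit1 scatters more (r = -0.513), and the 2 narrowest arrays are control replicates 3 and 4.

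Ifi35, an interferon-induced leucine zipper protein, was the one gene whose NO-naproxen and control groups did not overlap. It measured 7.77, 7.81, 7.60 and 7.59 in NO-naproxen livers, 7.62, 7.76, 7.25 and 7.56 in naproxen livers and 7.45, 7.24, 7.32 and 7.04 in control livers. Every NO-naproxen array was above every control array, and the naproxen arrays spanned both. The log2 fold change was 0.43 ± 0.16 (SE, 95% interval 0.08 to 0.78), with an unadjusted p of 0.0182 and an adjusted p of 0.468 by limma for NO-naproxen against control, a ratio of 1.35, and 0.29 ± 0.16 (SE, 95% interval -0.06 to 0.63), with an unadjusted p of 0.0989 and an adjusted p of 0.444 by limma for naproxen against control. It stayed under 1.5-fold with all arrays, and for NO-naproxen against control it was 0.38 with the interquartile range as a covariate (unadjusted p of 0.0472 by limma) and 0.35 without both narrow control arrays (unadjusted p of 0.112).

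Ifit1, a protein that binds viral RNA without the cap methylation of the host, was measured by a dim probe set and was the effector farthest below control with either drug. It measured 4.28, 4.89, 5.04 and 4.85 in NO-naproxen livers, 4.17, 4.19, 4.72 and 4.33 in naproxen livers and 5.25, 4.76, 5.58 and 5.63 in control livers. All 4 naproxen arrays were below all 4 control arrays, by a margin of 4.72 against 4.76 between the closest, and the NO-naproxen arrays overlapped both. The log2 fold change was -0.54 ± 0.22 (SE, 95% interval -1.02 to -0.07), with an unadjusted p of 0.0282 and an adjusted p of 0.468 by limma for NO-naproxen against control. For naproxen against control it was -0.96 ± 0.22 (SE, 95% interval -1.43 to -0.48), with an unadjusted p of 0.000601 and an adjusted p of 0.381 by limma, a ratio of 0.515. Since the level lies within the olfactory receptor range, the size depends on the constant added before log2: with 64 in place of 16 the naproxen value was -0.36, and it no longer met the study's criterion. Without the 2 narrowest arrays it was -0.66. For NO-naproxen Ifit1 met the criterion without NO-naproxen replicate 3 (-0.63) or control replicate 2 (-0.72), while it was -0.24 without both narrow control arrays and -0.31 with the interquartile range as a covariate, neither at an unadjusted p under 0.05. The related Ifit2, another RNA-binding protein of the family, averaged 8.66 ± 0.41 with NO-naproxen, 8.58 ± 0.35 with naproxen and 8.35 ± 0.46 in controls, and the dim Ifit3 averaged 6.46 ± 0.38 with NO-naproxen, 6.29 ± 0.27 with naproxen and 6.20 ± 0.42 in controls (SD, n = 4 each). Ifit genes lie side by side and resemble each other in sequence, so signal may be shared between their probe sets.

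Rsad2, or viperin, which makes an antiviral nucleotide, averaged 7.77 ± 0.35 with NO-naproxen, 7.65 ± 0.27 with naproxen and 7.37 ± 0.13 in controls (SD, n = 4 each). Its log2 fold change was 0.40 ± 0.20 (SE, 95% interval -0.02 to 0.81), with an unadjusted p of 0.0605 and an adjusted p of 0.468 by limma for NO-naproxen against control. Gbp2, a guanylate-binding GTPase that acts on pathogen-containing vacuoles, averaged 8.42 ± 0.16 with NO-naproxen, 8.32 ± 0.28 with naproxen and 8.04 ± 0.36 in controls (SD, n = 4 each). Its log2 fold change was 0.38 ± 0.20 (SE, 95% interval -0.05 to 0.80), with an unadjusted p of 0.0772 and an adjusted p of 0.468 by limma in the same comparison, and it was 0.10 without both narrow control arrays. Rsad2 was at 0.37 without them and 0.15 with the interquartile range as a covariate. Oas1a, the synthase of oligoadenylates that switch on RNase L, measured 8.11, 8.33, 8.43 and 7.68 in NO-naproxen livers, 8.36, 8.80, 7.88 and 8.50 in naproxen livers and 8.31, 8.45, 7.53 and 7.19 in control livers. Control replicates 3 and 4 were the lowest arrays, while control replicates 1 and 2 lay among the drug arrays, so the groups overlapped. For Oas1a the log2 fold change was 0.52 ± 0.28 (SE, 95% interval -0.08 to 1.11), with an unadjusted p of 0.083 and an adjusted p of 0.426 by limma for naproxen against control, and it was 0.0045 without control replicates 3 and 4. With naproxen replicate 3 left out it was 0.68, with control replicate 1 left out 0.66 and with control replicate 2 left out 0.71, and Oas1a then met the study's criterion.

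The other 7 effectors had log2 fold changes against control between -0.20 and 0.40. Mx1, a dynamin-like GTPase that acts on incoming viruses, averaged 6.76 ± 0.51 with NO-naproxen, 6.83 ± 0.53 with naproxen and 6.47 ± 0.51 in controls, and its relative Mx2 averaged 9.56 ± 0.47 with NO-naproxen, 9.72 ± 0.51 with naproxen and 9.32 ± 0.83 in controls. Oasl, an oligoadenylate synthase-like protein, averaged 6.88 ± 0.19 with NO-naproxen, 7.00 ± 0.32 with naproxen and 6.74 ± 0.29 in controls (SD, n = 4 each). Bst2, or tetherin, which holds budding virions at the membrane, averaged 12.71 ± 0.09 with NO-naproxen, 12.60 ± 0.17 with naproxen and 12.73 ± 0.10 in controls, and Ifi27, a small interferon-induced protein, averaged 11.29 ± 0.49 with NO-naproxen, 11.46 ± 0.49 with naproxen and 11.34 ± 0.35 in controls. Isg20, an exonuclease of single-stranded RNA, averaged 6.62 ± 0.22 with NO-naproxen, 6.76 ± 0.19 with naproxen and 6.82 ± 0.19 in controls, and the dim ubiquitin-like modifier Isg15 averaged 5.63 ± 0.51 with NO-naproxen, 5.62 ± 0.54 with naproxen and 5.70 ± 0.31 in controls (SD, n = 4 each). In every one of these genes the groups overlapped.

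The ISRE was looked for in the RefSeq promoter windows, each 300 bases long and running from 250 bases before to 50 bases after the annotated start, on the GRCr8 assembly, which is not the rn4 build named for the arrays. Of the 36 genes, 30 had a window, and Irf2, Mx2, Isg15, Ifit1, Ifit2 and Ciita had none here. The letters searched, on both strands, were GAAA, 2 further bases and GAAA again, which read TTTC, 2 bases and TTTC on the other strand. They were found in 13 of 30 windows, against 3.92% of 33469 windows of all genes, and in 8 of 11 windows of the effectors. The 3 stretches that follow are shown because Ifi44 has the largest difference above control and because Oas1a and Gbp2 varied together between rats. Each gives the 160 bases directly before the start, 5′ to 3′ on the strand of the gene, with the ISRE letters in capitals.
Ifi44 (GRCr8 chr2:243303841-243304000, minus strand): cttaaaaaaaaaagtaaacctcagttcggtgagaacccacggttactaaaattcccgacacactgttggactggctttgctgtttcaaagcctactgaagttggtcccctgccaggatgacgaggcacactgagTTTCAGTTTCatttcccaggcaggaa
Oas1a (GRCr8 chr12:41330306-41330465, plus strand): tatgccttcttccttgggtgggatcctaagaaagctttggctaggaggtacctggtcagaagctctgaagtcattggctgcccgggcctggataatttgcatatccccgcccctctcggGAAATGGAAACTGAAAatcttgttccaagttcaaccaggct
Gbp2 (GRCr8 chr2:234005567-234005726, plus strand): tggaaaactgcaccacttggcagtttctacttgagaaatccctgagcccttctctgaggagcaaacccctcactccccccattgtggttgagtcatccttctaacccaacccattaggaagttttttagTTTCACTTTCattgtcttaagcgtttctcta
The match begins 26 bases before the start in Ifi44 and 31 before it in Gbp2, both on the opposite strand, and in Oas1a 2 matches that share 4 bases begin 41 and 35 bases before it. Ifi44 has a second match after the start, at base 27. The 13 genes with the letters had a median log2 fold change of 0.20 with NO-naproxen and 0.094 with naproxen against control, and the 17 without them 0.21 and 0.23. A match is a description of the letters, not a bound site.

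The chemokines Cxcl9, Cxcl10 and Cxcl11 draw T cells through the receptor Cxcr3, and 2 of 3 were above control with each drug. Cxcl9 measured 8.54, 9.25, 9.31 and 8.14 in NO-naproxen livers, 8.91, 8.79, 8.28 and 8.59 in naproxen livers and 8.42, 8.69, 8.22 and 7.99 in control livers. NO-naproxen replicates 2 and 3 and naproxen replicate 1 were highest, NO-naproxen replicate 4 was nearly as low as the lowest control, and the groups overlapped. Its log2 fold change was 0.48 ± 0.25 (SE, 95% interval -0.06 to 1.02), with an unadjusted p of 0.0763 and an adjusted p of 0.468 by limma for NO-naproxen against control, and 0.32 for naproxen against control. Without NO-naproxen replicate 4 it was 0.70, and without control replicate 2 it was 0.60, and both then met the study's criterion. Without both narrow control arrays Cxcl9 was at 0.26. Cxcl11 averaged 8.41 ± 0.25 with NO-naproxen, 8.30 ± 0.22 with naproxen and 8.19 ± 0.22 in controls, and Cxcl10 averaged 7.05 ± 0.33 with NO-naproxen, 7.07 ± 0.14 with naproxen and 7.08 ± 0.30 in controls (SD, n = 4 each), with log2 fold changes of Cxcl10 of -0.024 and -0.0094 for NO-naproxen and naproxen. A GAS, with the letters TTCNNNGAA that read the same on both strands, was found in 8 of 30 windows, against 8.87% of all windows. The 8 were those of Irf1, Irf8, Irf9, Oas1a, Bst2, Cxcl9, Cxcl11 and Socs1. In Cxcl9 the match lies after the start, at base 33.

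The 3 measured genes of the class I pathway had median log2 fold changes of 0.20 with NO-naproxen and -0.0008 with naproxen, and none reached an unadjusted p under 0.05. B2m, the light chain of every class I molecule, measured 13.12, 13.43, 13.55 and 13.22 in NO-naproxen livers, 13.35, 13.44, 13.19 and 13.44 in naproxen livers and 13.39, 13.25, 13.39 and 13.39 in control livers. Control replicate 2 was the lowest of a narrow control group, and the NO-naproxen and naproxen arrays lay on both sides of it. The log2 fold changes of B2m were -0.024 with NO-naproxen and -0.0008 with naproxen, with 95% intervals of -0.35 to 0.30 and -0.33 to 0.32. Tap1 and Tap2 form the transporter that carries peptides into the endoplasmic reticulum. Tap1 averaged 9.70 ± 0.08 with NO-naproxen, 9.68 ± 0.32 with naproxen and 9.51 ± 0.49 in controls (SD, n = 4 each). Tap2 measured 7.55, 7.80, 7.50 and 7.38 in NO-naproxen livers, 7.30, 7.24, 7.45 and 7.34 in naproxen livers and 7.36, 7.55, 7.07 and 7.37 in control livers. NO-naproxen replicate 2 was the highest and control replicate 3 the lowest, and the groups overlapped. Tap2 had a log2 fold change of 0.22 for NO-naproxen and -0.0041 for naproxen against control. The windows of B2m, Tap1 and Tap2 all held the ISRE letters.

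All 5 class II genes were above control with NO-naproxen and 4 of 5 with naproxen, by small amounts that none of the tests called. After quantile normalization Cd74 and RT1-Da were below control, at -0.064 and -0.13 with NO-naproxen and -0.0071 and -0.069 with naproxen. The other class II genes kept their direction. The median log2 fold change was 0.17 with NO-naproxen and 0.052 with naproxen, and the smallest unadjusted p was 0.315 and 0.335 (limma, adjusted 0.616 and 0.654). RT1-Bb, the beta chain of the class II molecule RT1-B, measured 8.98, 9.75, 9.58 and 9.23 in NO-naproxen livers, 9.24, 9.44, 9.04 and 9.62 in naproxen livers and 9.37, 9.22, 8.99 and 9.16 in control livers. Within each drug group the rats spanned more than the difference between diets, with NO-naproxen replicate 1 the lowest of all 12 and NO-naproxen replicate 2 the highest. Its partner RT1-Ba averaged 10.08 ± 0.48 with NO-naproxen, 10.13 ± 0.32 with naproxen and 9.91 ± 0.15 in controls, and Cd74, the invariant chain that guides class II molecules through the cell, averaged 11.04 ± 0.28 with NO-naproxen, 11.04 ± 0.26 with naproxen and 10.99 ± 0.12 in controls (SD, n = 4 each). RT1-Da, the alpha chain of RT1-D, averaged 10.64 ± 0.42 with NO-naproxen, 10.63 ± 0.22 with naproxen and 10.61 ± 0.29 in controls, and its partner RT1-Db1 averaged 8.07 ± 0.48 with NO-naproxen, 7.74 ± 1.19 with naproxen and 7.90 ± 0.36 in controls (SD, n = 4 each). The wide naproxen SD of RT1-Db1 came with values of 7.65, 8.22, 6.13 and 8.95 in that group. RT1 genes form a family of similar copies, so signal may be shared between their probe sets.

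Class II promoters carry conserved boxes, of which the Y box, with the letters CTGATTGG and CCAATCAG on the other strand, was searched. It was found in 4 of the 5 class II windows, those of the RT1 genes and not that of Cd74, against 6 of all 30 windows searched and 3.50% of all 33469 windows. The 4 stretches are shown because they hold the Y box, and a relation of the box to the levels was not tested. Each gives the 120 bases directly before the start on GRCr8, 5′ to 3′ on the strand of the gene, with the Y box in capitals.
RT1-Ba (GRCr8 chr20:4576937-4577056, plus strand): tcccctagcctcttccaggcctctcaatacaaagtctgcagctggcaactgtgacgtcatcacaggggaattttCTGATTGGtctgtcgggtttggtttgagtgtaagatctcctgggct
RT1-Bb (GRCr8 chr20:4604119-4604238, minus strand): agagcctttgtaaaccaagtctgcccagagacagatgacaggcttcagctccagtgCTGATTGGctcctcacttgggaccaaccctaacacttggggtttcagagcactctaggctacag
RT1-Da (GRCr8 chr20:4515295-4515414, plus strand): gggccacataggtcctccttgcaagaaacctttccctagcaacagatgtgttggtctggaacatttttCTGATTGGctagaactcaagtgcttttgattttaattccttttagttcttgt
RT1-Db1 (GRCr8 chr20:4560163-4560282, minus strand): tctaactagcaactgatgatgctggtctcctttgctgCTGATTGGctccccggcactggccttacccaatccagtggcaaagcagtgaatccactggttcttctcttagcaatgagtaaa
The Y box began 46 bases before the start in RT1-Ba, 64 in RT1-Bb, 52 in RT1-Da and 83 in RT1-Db1, on the strand of the gene each time. None of the 5 class II windows held the ISRE letters or the GAS letters. In this they differed from the 3 class I windows, which all held the ISRE letters and none the Y box.

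Class II genes varied together from rat to rat when the diets were pooled. With each array set against the mean of its own diet, the 10 pairs of class II genes had a median Pearson r of 0.741 over the 12 arrays, and the 10 values ran from 0.493 to 0.958. The 4 pairs with RT1-Db1 were the lowest, and in controls, where RT1-Ba measured 10.00, 10.06, 9.75 and 9.82 and RT1-Db1 7.85, 7.45, 8.31 and 7.99, these 2 genes ran in opposite directions. With 4 rats per diet no correlation within a diet is given. The 630 pairs of all 36 genes had a median of 0.276, and the 72354435 pairs of probe sets above the olfactory receptor range a median of 0.088. RT1-Ba and RT1-Bb, the 2 chains of RT1-B, correlated at 0.958, Cd74 and RT1-Bb at 0.945 and Cd74 and RT1-Ba at 0.935. These pairs are a description: all values share the same 12 arrays. With the interquartile range of the arrays removed as well, the class II median was 0.779.

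Class II genes also varied with the markers of Kupffer cells and macrophages, which carry class II molecules in liver. Over the 75 pairs of a class II gene with 1 of 15 such markers the median r was 0.626, and 73 pairs were above 0. With 9 hepatocyte markers the median was 0.075, with 33 of 45 pairs above 0. With 7 dendritic cell markers, 4 of them dim, it was 0.446 (34 of 35 above 0), and with 6 leukocyte markers 0.456 (30 of 30). For 3 B cell markers, 2 of them dim, it was 0.264 (15 of 15), and for 3 sinusoidal endothelial cell markers 0.265 (15 of 15). For 10 T and NK cell markers, 3 of them dim, it was 0.270 (41 of 50). The part of these cells in the class II levels was not tested. The summed intensity of the 15 Kupffer cell and macrophage markers lay between 9088.8 and 14287.3 in NO-naproxen livers, 9511.4 and 12307.3 in naproxen livers and 9026.2 and 11827.6 in control livers. Their median log2 fold change was 0.30 with NO-naproxen and 0.20 with naproxen. Of the 15, 12 and 14 were above control, where 61.4% and 56.8% of the probe sets above the olfactory receptor range were. An unadjusted p under 0.05 by limma was reached by 2 and 1, where 10.4% and 12.7% of all probe sets did. Control replicates 3 and 4, the arrays of narrowest spread, were the lowest controls for some of these markers, such as C1qc and Mrc1, and not for others, such as Cd68. The 6 leukocyte markers, summed between 1615.8 and 2380.2, 1432.6 and 1974.4, and 1330.8 and 1582.7 in NO-naproxen, naproxen and control livers, had medians of 0.31 and 0.28. Of the 7 dendritic cell markers 3 were above control with NO-naproxen and 2 with naproxen, with medians of -0.0069 and -0.19, and none of the 3 B cell markers was with either drug, with medians of -0.29 and -0.55. Of the 10 T and NK cell markers 5 were above control with NO-naproxen and 4 with naproxen, with medians of -0.013 and -0.13. All 3 sinusoidal endothelial cell markers were above control with either drug, with medians of 0.29 and 0.42. None of these markers passed the adjusted threshold. Marker values without control replicates 3 and 4 were not computed, so how far they move with the spread of the arrays was not tested.

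Outside class II, the 3 closest pairs among the antiviral effectors changed unequally when the spread of the arrays was removed. Oas1a and Gbp2 correlated at 0.918 between rats of a diet and at 0.913 with the spread removed, and Mx2 and Gbp2 at 0.897 and 0.89. Ifit2 and Ifi44 correlated at 0.937, but at 0.571 with the spread removed. Of all 105 effector pairs, 65 were higher with the spread removed and 40 lower, and Mx1 and Isg15 changed to 0.899 with it removed, against 0.387 before. Among the transcription factors Stat2 and Irf9 correlated at 0.836, and at 0.442 with the spread removed. Cxcl9 and Cxcl11 correlated at 0.712 and 0.7, while Cxcl10 ran with neither, at -0.167 with Cxcl9 and -0.337 with Cxcl11. With the spread removed these 2 values were 0.030 and 0.052. The class I genes B2m, Tap1 and Tap2 did not vary together, with a median r of -0.101 over 3 pairs, and 0.146 with the spread removed.

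**Figure D4:**
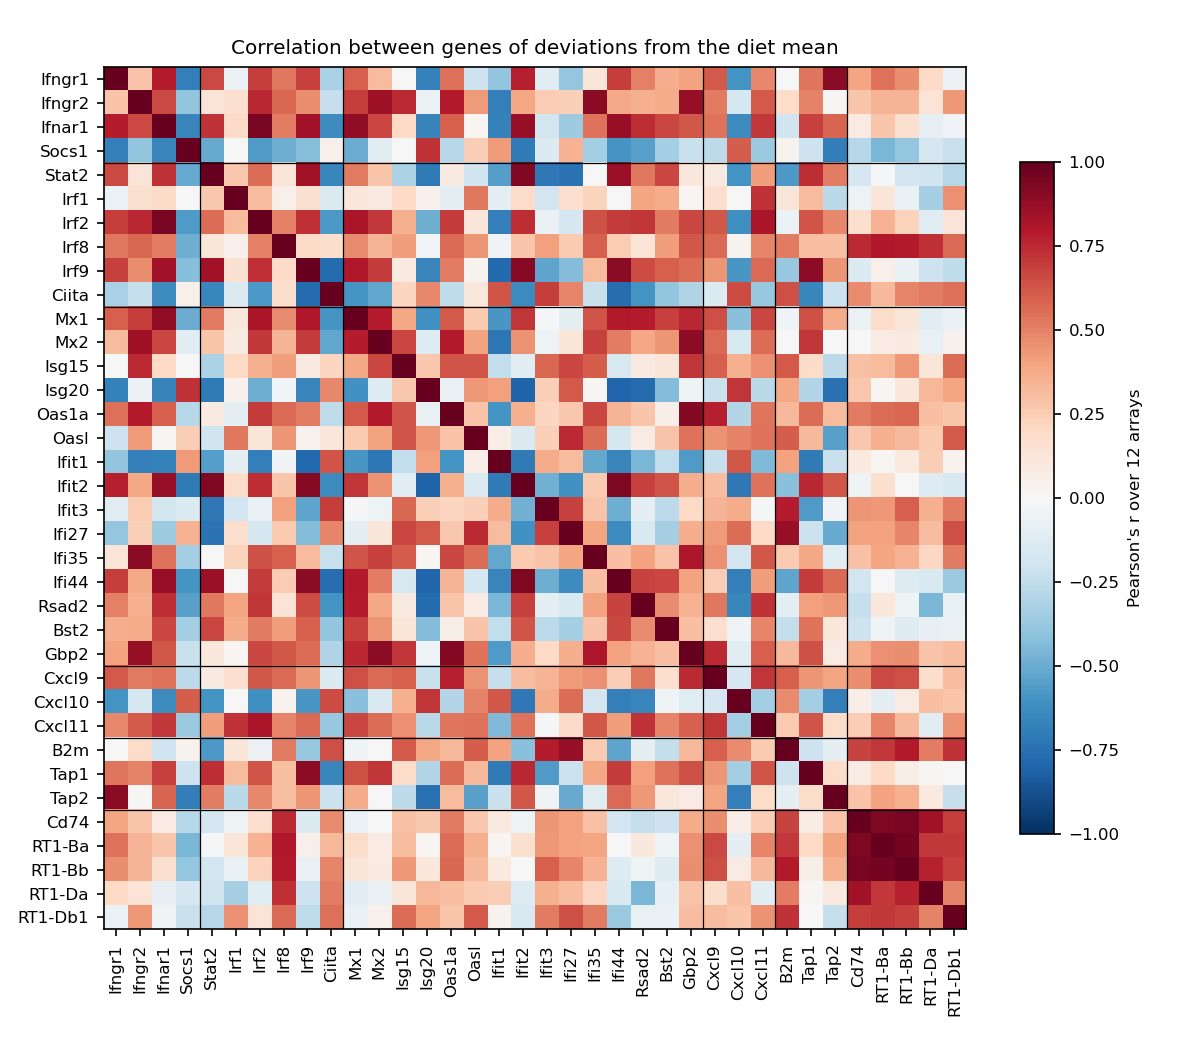
Pearson correlation over 12 arrays between the 36 genes after subtracting the mean of the diet, with genes in order of role and lines between the roles. The red block at the lower right is the class II pathway (median r of 0.741 over 10 pairs), and Cxcl10, Isg20, Ifit1 and Socs1 show blue bands against much of the list.

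The rats of a diet differed as much as the diets did. With each gene centred on its mean over the 12 arrays, the median of the 36 genes was 0.031, 0.31, 0.096 and -0.062 in NO-naproxen livers, 0.19, 0.087, -0.19 and 0.099 in naproxen livers and -0.0023, 0.0049, -0.22 and -0.32 in control livers. NO-naproxen replicate 2 was the highest, and control replicates 3 and 4, the arrays of narrowest spread, were the lowest, with naproxen replicate 3 beside them. Control replicates 1 and 2 lay among the drug arrays. For class II genes the median was -0.40 in NO-naproxen replicate 1 and 0.45 in NO-naproxen replicate 2, the lowest and the highest of the 12.

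**Figure D5:**
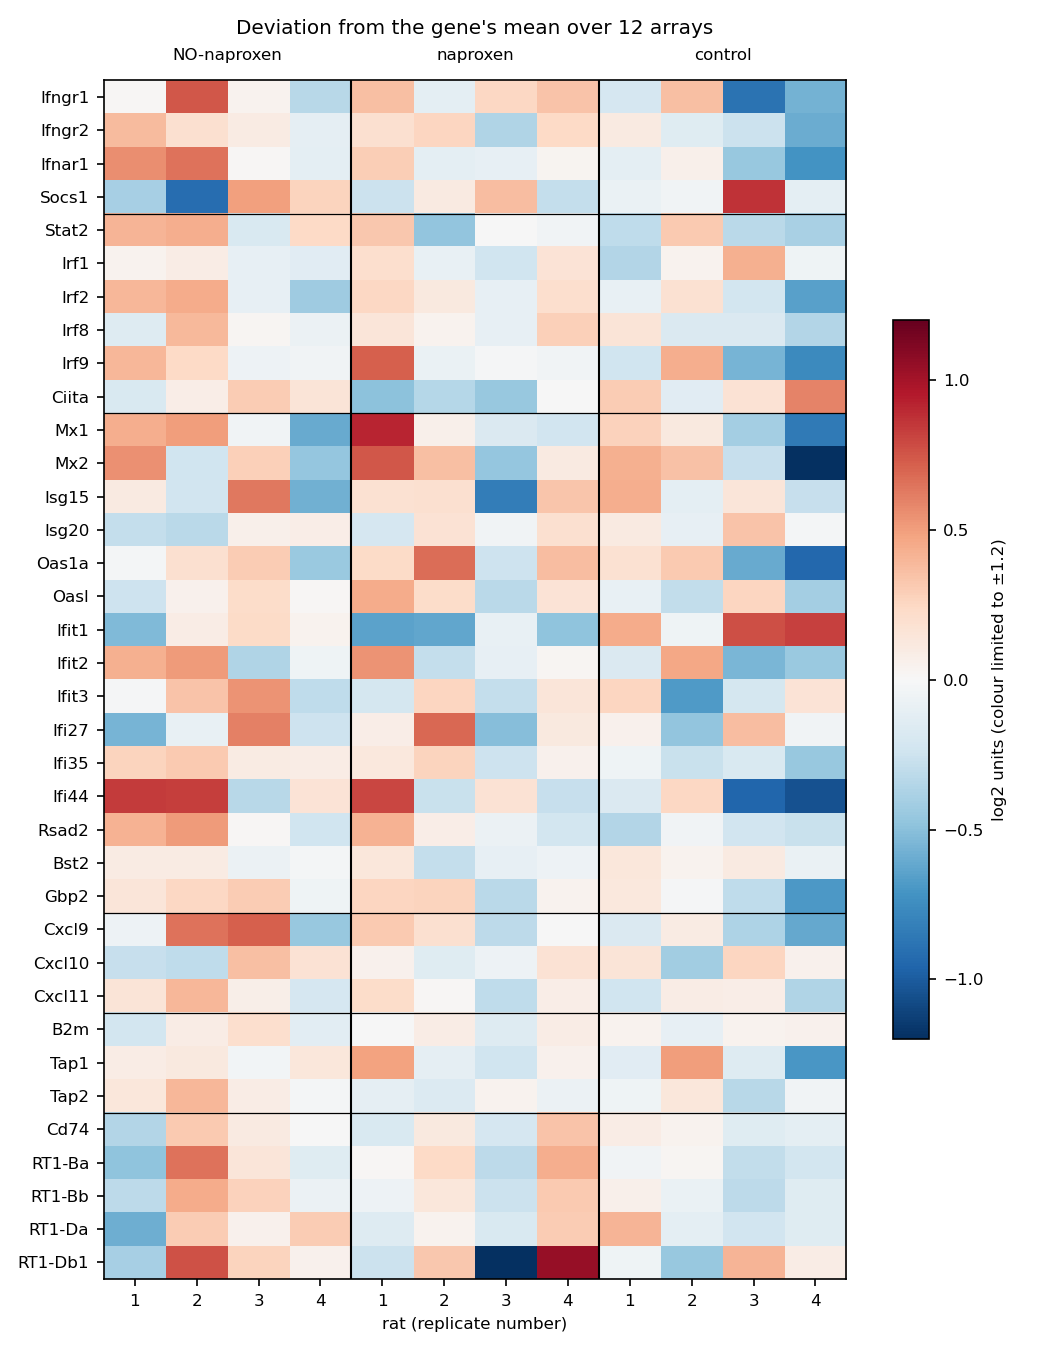
Each gene's deviation from its mean over 12 arrays in log2 units (red above, blue below, colours limited at 1.2), with genes in rows by role and the rats of each diet in columns. Control replicates 3 and 4 are blue over most rows. Among the exceptions are Ifit1 and Ciita in both, and Socs1 and Irf1 in control replicate 3. The class II rows change colour together, blue in NO-naproxen replicate 1 and red in NO-naproxen replicate 2.

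The drugs were then compared with each other, at doses that differ by weight of diet. Of the 36 genes, 20 had a higher mean with NO-naproxen than with naproxen, 55.6%, where 64.1% of all probe sets and 66.3% of those above the olfactory receptor range did, and the median log2 fold change was 0.022, against 0.062 over all probe sets. Ciita alone reached an unadjusted p under 0.05, where 1.92% of all probe sets did. None of the 36 genes met the study's criterion, where 0.572% of all probe sets did, and no gene had separate groups, where 1.17% did. The direction of the median turned with the scaling, as it was -0.042 after quantile normalization and -0.024 after median centring, and it was -0.053 without naproxen replicate 3.

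Ciita averaged 7.10 ± 0.20 with NO-naproxen, 6.69 ± 0.22 with naproxen and 7.25 ± 0.30 in controls (SD, n = 4 each). The log2 fold change of NO-naproxen against naproxen was 0.41 ± 0.19 (SE, 95% interval 0.01 to 0.81), with an unadjusted p of 0.0451 and an adjusted p of 1 by limma. Naproxen replicate 4 was within the NO-naproxen range and the other 3 naproxen arrays were below it. For Ifit1, on its dim probe set, the log2 fold change was 0.41 ± 0.22 (SE, 95% interval -0.06 to 0.89), with an unadjusted p of 0.0827 and an adjusted p of 1 by limma. For Tap2, a chain of the peptide transporter, it was 0.23 ± 0.16 (SE, 95% interval -0.11 to 0.57), with an unadjusted p of 0.175 and an adjusted p of 1 by limma. The NO-naproxen and naproxen arrays of both genes overlapped. Stat2 differed by 0.27 ± 0.22 (SE, 95% interval -0.18 to 0.73), with an unadjusted p of 0.222 and an adjusted p of 1 by limma, and Ifnar1 by 0.25 ± 0.22 (SE, 95% interval -0.21 to 0.71), with an unadjusted p of 0.273 and an adjusted p of 1 by limma. The intervals of Ifit1, Tap2, Stat2 and Ifnar1 include 0 and reach past 0.5, so these arrays show neither a difference between the drugs nor that they act alike. Oas1a differed by -0.25 ± 0.28 (SE, 95% interval -0.84 to 0.34), with an unadjusted p of 0.387 and an adjusted p of 1 by limma, and Isg20 by -0.15 ± 0.17 (SE, 95% interval -0.51 to 0.22), with an unadjusted p of 0.406 and an adjusted p of 1 by limma. These are the genes with a lower NO-naproxen mean among the 8 of smallest p. Ifi35, the last of these 8, differed by 0.14 ± 0.16 (SE, 95% interval -0.20 to 0.49), with an unadjusted p of 0.392 and an adjusted p of 1 by limma.

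Beyond the list, 57 of 114 other genes of interferon signalling and antigen presentation were measured, 7 of them dim. With NO-naproxen, 45 of 57 were above control, where 61.4% of the probe sets above the olfactory receptor range were, and the median log2 fold change was 0.18. An unadjusted p under 0.05 was reached by 6, all above control, where 10.4% of all probe sets did, and 2 of them met the study's criterion, where 3.8% did. With naproxen, 39 of 57 were above control, where 56.8% of the probe sets above that range were, the median was 0.11, and 2 reached it, both above control and both dim, where 12.7% of all probe sets did. NO-naproxen against naproxen had 40 of 57 above 0, where 66.3% of the probe sets above that range were, a median of 0.089 and none at an unadjusted p under 0.05. None passed limma's adjusted threshold. Sp100, an interferon-induced protein of nuclear bodies, averaged 8.50 ± 0.33 with NO-naproxen, 8.32 ± 0.26 with naproxen and 7.90 ± 0.44 in controls. Ptpn2, a phosphatase that acts on Jak kinases, averaged 7.88 ± 0.49 with NO-naproxen, 7.73 ± 0.37 with naproxen and 7.28 ± 0.30 in controls (SD, n = 4 each). Their log2 fold changes against control were 0.60 with NO-naproxen and 0.42 with naproxen for Sp100, and 0.60 and 0.45 for Ptpn2. Jak2, the kinase on Ifngr2, averaged 8.50 ± 0.34 with NO-naproxen, 8.28 ± 0.33 with naproxen and 7.98 ± 0.36 in controls, and Stat3, a factor shared with interleukin 6 signalling, averaged 10.61 ± 0.25 with NO-naproxen, 10.63 ± 0.08 with naproxen and 10.26 ± 0.29 in controls (SD, n = 4 each). Jak2 differed from control by 0.52 with NO-naproxen and 0.30 with naproxen, and Stat3 by 0.35 and 0.37. For Sp100, Ptpn2 and Jak2 the lowest of all arrays were control replicates 3 and 4, the arrays of narrowest spread. For Stat3 they were control replicates 2 and 4. In Sp100, Ptpn2, Jak2 and Stat3 each drug group overlapped the control group. Ifitm2, a membrane protein that blocks viral entry, and Ifng, interferon gamma itself, were dim, at 5.20 ± 0.11 with NO-naproxen, 5.24 ± 0.20 with naproxen and 4.82 ± 0.26 in controls for Ifitm2 and 5.86 ± 0.14 with NO-naproxen, 5.98 ± 0.10 with naproxen and 5.60 ± 0.15 in controls for Ifng (SD, n = 4 each). Their log2 fold changes for naproxen against control were 0.42 and 0.39. These 2 alone of the 57 had naproxen and control groups that did not overlap, where 4.5% of all probe sets did. With NO-naproxen none of the 57 did, where 3.35% of all probe sets did.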

How the data were processed

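Liver RNA of 12 rats was hybridised to whole-transcript arrays, 1 per rat. The deposited values are linear intensity values of 19418 probe sets. Per the submitters' processing notes they were made with Affymetrix Expression Console 1.1.1 on build rn4, while summary method and normalization remain unstated in what was used here. Array medians lay between 89.8 and 118. The design had assumed log2 values, so 16 was added to the deposited intensities before log2, and 5.87% to 11.1% of values per array were under 16. All 12 arrays entered 1 fit in limma 3.58.1 (R 4.3.3, lmFit and eBayes, two-sided) with diet as the only term, Benjamini-Hochberg over all probe sets, and fold changes came from it. This fit was first run on simulated data.

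The genes and lists were chosen with earlier results of these data known. Every measured gene is described. Fold change with error and p is given for the 8 genes of smallest p per comparison, and single arrays for the first 4 and for the gene of smallest F test p in each role. Array values of B2m and RT1-Db1 were added after their values were seen. Through Entrez identifiers 13232 probe sets matched RefSeq genes. Alternatives were constants of 1 and 64, quantile normalization, median centring, the interquartile range as covariate, leaving out its 2 narrowest arrays, a trended robust spread, array weights, only the groups compared, dropping the dimmest 30%, a 2-fold criterion, a replicate block, and fits with any 1 array left out. Figures used matplotlib 3.10.9 in Python 3.11.15.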

Additional observations from a re-analysis of the deposited data

Results flagged for a closer look

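With 4 arrays per diet, 108 groups of the 36 genes were examined for a single array apart from the other 3, and 6 held one, where chance gives about 1 group in 20. Irf9 measured 9.88 in naproxen replicate 1, against 9.09 to 9.15 in the other naproxen livers. Naproxen replicate 3 was low for Ifngr2, at 8.55 against 9.11 to 9.17, and for the dim Isg15, at 4.82 against 5.83 to 5.98. Control replicate 2 was high for Stat2, at 10.32 against 9.61 to 9.70 in the other controls, and low for B2m, at 13.25 against 13.39 in each of the other 3. Socs1 measured 7.85 in control replicate 3, against 6.87 to 6.94 in the other controls.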

How the results depend on the processing

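For the 8 genes of smallest p in each comparison, values were counted for each gene and setting. Of these values, 514 kept direction and side of the criterion, 27 brought a gene past it and 7 took a gene below it. Keeping the side mostly meant staying short of the criterion, which 1, 1 and 0 genes met in the main fit. Direction turned in 1 value, that of Ifi44 for naproxen against control (-0.066 with the interquartile range as covariate). Over all 36 genes, 12 and 12 values turned with that covariate and 11 and 13 without the 2 narrowest arrays, for NO-naproxen and naproxen against control. Genes meeting the study's criterion numbered 1 for NO-naproxen against control, but 2 with a constant of 1 or median centring, 4 with array weights, 0 with the interquartile range as covariate, without the 2 narrowest arrays or at 2-fold, and 0 to 6 with 1 array left out. For naproxen against control they numbered 1, but 2 with a constant of 1, 3 with median centring or array weights, 0 with a constant of 64, without the dimmest 30% (which drops Ifit1) or at 2-fold, and 1 to 6 with 1 array left out. For NO-naproxen against naproxen the count was 0, 1 with a constant of 1 (Ifit1), and 0 with any array left out. Probe sets past the adjusted threshold numbered 2 for NO-naproxen against control with array weights, and 0 to 4 and 0 to 3 for NO-naproxen and naproxen against control with 1 array left out. The median of the genes lay between 0.11 and 0.27 for NO-naproxen and between 0.12 and 0.28 for naproxen against control with 1 array left out, at 0.080 and 0.11 after quantile normalization, and at 0.095 and 0.10 with the covariate. For NO-naproxen against naproxen it turned to -0.042 with quantile normalization and -0.024 with median centring, and ran from -0.053 to 0.13 with 1 array left out. The cause was not tested. With the replicate number as a block, 1, 1 and 0 genes met the criterion and 0 passed the adjusted threshold in the 3 comparisons. Same-numbered arrays correlated between -0.38 and 0.48 in their deviations, 4 of 12 pairs over 0.1, and 3 of 12 arrays correlated best with their own number. These values show no common pairing of the rats by number, but 12 pairs cannot exclude it. Averaging a gene's probe sets was not run, since each gene had 1. Signal limits Ifit1, Isg15 and Ifit3, and 4 rats per diet limit the rest.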
